A study of Caenorhabditis elegans with 2 samples.

Results

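The cytosolic ribosomal protein genes of Caenorhabditis elegans were taken as all protein-coding genes whose names begin with rpl-, rps- or rla- in the annotation of build ce11, which gave 81 of 19985 protein-coding genes. The large subunit supplied 50 of them (47 rpl genes and the 3 rla genes of the acidic stalk proteins) and the small subunit 31. Their promoters were examined in chromatin immunoprecipitation followed by sequencing (ChIP-seq) of the protein Y53F4B.3, named pole-4 in the annotation. The worms were of strain RW12270, in which CRISPR had placed a TY1, EGFP and 3xFLAG tag on Y53F4B.3 at its own locus. Whole young adults of 64 hours, synchronised from starved L1 larvae after bleaching, were sonicated, and the tagged protein was pulled down with an antibody against GFP. There was 1 group of 2 biological replicates, each with the same genotype and age, so the data hold no contrast between conditions. Whole animals mix all tissues, so a peak cannot be placed in a cell type. No p-value was computed over these genes, and their counts are set beside the same counts over all protein-coding genes.

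Ribosomal protein genes encode the proteins that, with ribosomal RNA, build the translating ribosome. The small subunit reads the mRNA and the large subunit joins the amino acids. These genes are among the most highly transcribed in growing cells, and worms share with many animals the habit of carrying small nucleolar RNA (snoRNA) genes, which guide rRNA modification, in their introns. Many worm transcripts are trans-spliced: a short leader replaces the first stretch of the primary transcript, so that the annotated start can be the splice acceptor, with promoter DNA further upstream. The vertebrate homologue of pole-4 is an accessory subunit of DNA polymerase epsilon with a histone fold.

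The peaks of the 6 ribosomal protein genes with the highest signal among those whose sequence can be shown are printed first, because the results turn on them. Each is written 5′ to 3′ on the strand of its gene, from the RefSeq sequence of the assembly WBcel235, which is build ce11. Capitals mark the words TACGGT and GGCCTA, read on either strand of the DNA, whose counts are given further on. The peaks lie at chrIII:3867506-3867648 (rpl-3, plus strand), chrIII:7854634-7854744 (rpl-35, plus), chrIV:385424-385683 (rps-24, plus), chrIV:4749934-4750193 (rpl-20, minus), chrIV:654784-655043 (rpl-15, minus) and chrIV:1659105-1659364 (rps-28, plus). None of the 6 touches an annotated exon. The peaks of rpl-3 and rpl-15 hold both words, with GGCCTA on the side of the gene. The rpl-20 peak holds TACGGT, the rps-28 peak holds GGCCTA, and the peaks of rpl-35 and rps-24 hold neither.
rpl-3: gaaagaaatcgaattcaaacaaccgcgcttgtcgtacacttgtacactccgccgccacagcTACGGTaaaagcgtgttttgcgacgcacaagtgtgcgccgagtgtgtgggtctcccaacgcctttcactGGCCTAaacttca
rpl-35: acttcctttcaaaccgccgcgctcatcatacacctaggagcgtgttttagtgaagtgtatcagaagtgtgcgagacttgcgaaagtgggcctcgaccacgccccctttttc
rps-24: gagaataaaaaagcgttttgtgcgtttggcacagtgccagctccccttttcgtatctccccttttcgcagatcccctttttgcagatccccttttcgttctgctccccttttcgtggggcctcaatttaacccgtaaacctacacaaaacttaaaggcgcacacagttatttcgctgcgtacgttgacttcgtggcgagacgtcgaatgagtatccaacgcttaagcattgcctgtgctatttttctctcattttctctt
rpl-20: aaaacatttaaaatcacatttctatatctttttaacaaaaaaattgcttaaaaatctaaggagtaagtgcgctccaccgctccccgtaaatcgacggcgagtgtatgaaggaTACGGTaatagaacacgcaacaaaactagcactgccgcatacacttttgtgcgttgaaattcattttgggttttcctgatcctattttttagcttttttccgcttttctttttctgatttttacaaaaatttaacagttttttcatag
rpl-15: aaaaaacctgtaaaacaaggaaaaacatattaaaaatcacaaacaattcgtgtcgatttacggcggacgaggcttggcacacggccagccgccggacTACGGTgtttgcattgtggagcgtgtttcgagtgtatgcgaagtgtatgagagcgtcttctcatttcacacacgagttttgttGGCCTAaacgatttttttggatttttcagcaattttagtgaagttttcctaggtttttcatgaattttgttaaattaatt
rps-28: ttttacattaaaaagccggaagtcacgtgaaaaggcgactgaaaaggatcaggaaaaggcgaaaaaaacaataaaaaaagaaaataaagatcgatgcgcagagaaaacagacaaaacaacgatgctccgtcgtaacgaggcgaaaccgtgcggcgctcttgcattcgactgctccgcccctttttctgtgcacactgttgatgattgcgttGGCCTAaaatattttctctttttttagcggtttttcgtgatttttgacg

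A gene was called listed where the summit of a peak in the authors' thresholded list lay within 2000 bp of an annotated start, and candidate only where such a summit appeared solely in the longer ranked list. The larger set, made from both replicates, had 465 listed peaks among 9477 candidates. By that rule 15 of the 81 ribosomal protein genes (18.5%) were listed, against 2.66% of all protein-coding genes. A further 51 had candidates only and 15 had none. Any candidate, listed or not, was found at 66 of the 81 (81.5%), against 33% of all protein-coding genes. The ribosomal protein genes were therefore above the background both for listed peaks and for candidates of any kind, which include the listed ones. In the small subunit 9 of 31 genes were listed (29%), 17 had candidates only and 5 had none. In the large subunit 6 of 50 were listed (12%), 34 had candidates only and 10 had none. The order of the subunits differed between replicates. Replicate 1 alone listed 12 of the 81 genes (14.8%, against 1.87% of all protein-coding genes), 7 of the small and 5 of the large subunit. Replicate 2 alone listed 10 (12.3%, against 1.31%), 3 of the small and 7 of the large subunit.

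**Figure D1:**
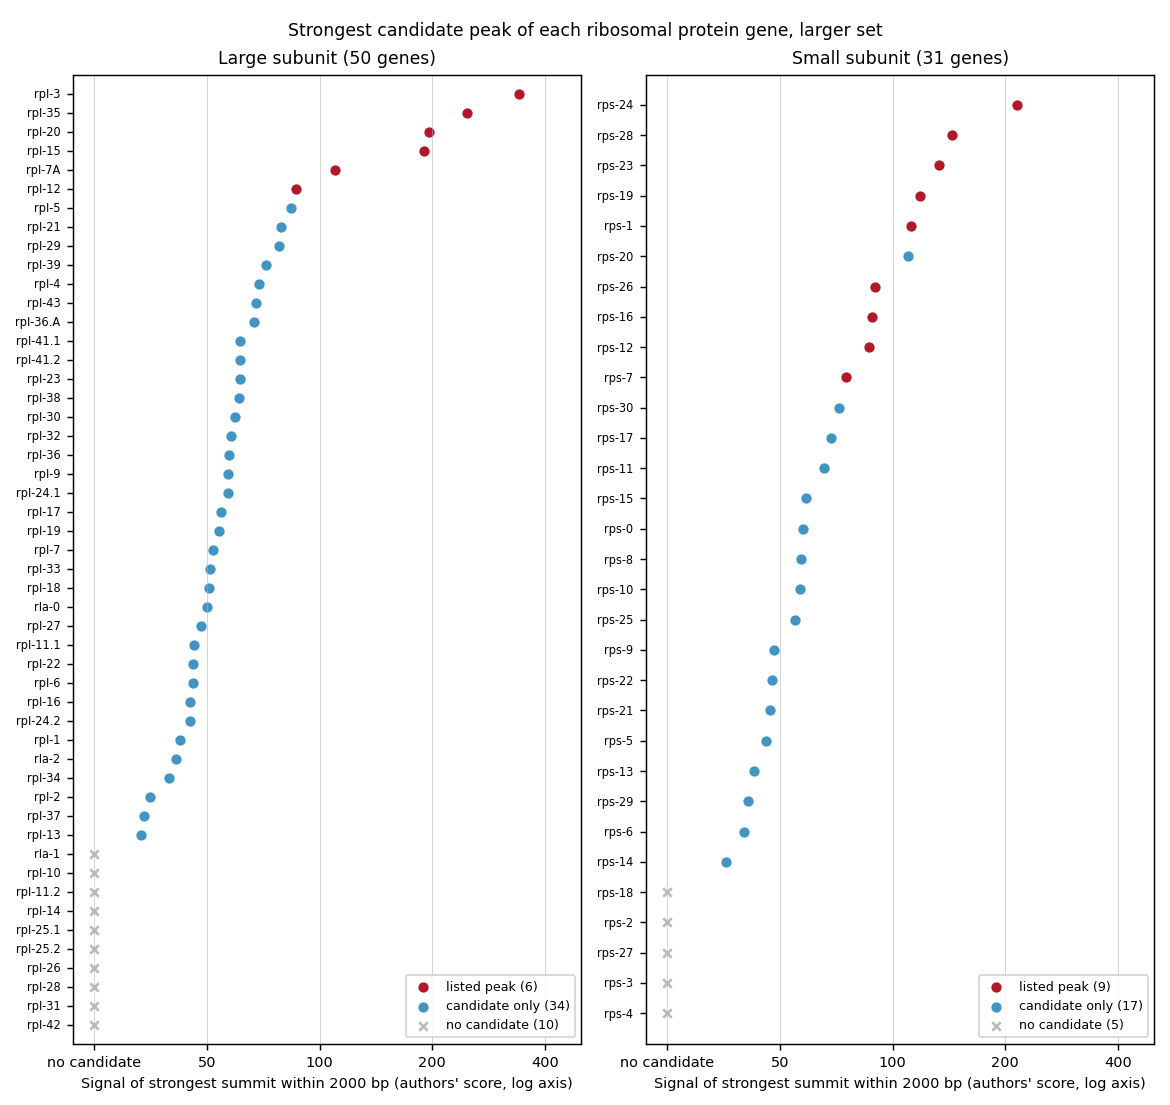
Signal of the strongest candidate summit within 2000 bp of each ribosomal protein gene in the larger set (the authors' score, log axis), with 1 row per gene and the large and small subunits in separate panels. Red points are listed, blue points candidate only, and grey crosses mark the 15 genes with no candidate. Of the listed genes rpl-3 is highest at 341 and rps-7 lowest at 75.1, and rps-20 (110), rpl-5, rpl-21 and rpl-29 lie above rps-7 without being listed.

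The signal of a peak is a score of the authors' peak caller. The listed ribosomal protein peaks had the same signal in the larger and the conservative set. No scale shared with or between the replicates' own lists is known, so their values are compared within a list only. Among the large subunit genes, rpl-3 (WBGene00004414), whose protein reaches towards the peptidyl transferase centre, had the highest signal, 341, at rank 79 of the candidates. The peak of rpl-35 (WBGene00004449), whose protein lies near the exit of the nascent chain tunnel, had 248. Those of the structural proteins rpl-20 (WBGene00004432) and rpl-15 (WBGene00004427) had 196 and 190. These 4 were well separated from the remaining listed large subunit genes, rpl-7A (WBGene00004419) at 110 and rpl-12 (WBGene00004424) at 86.3. RPL-12 belongs to the base of the stalk where elongation factors bind, and RPL-7A sits on the outside of the large subunit.

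Among small subunit genes the highest signal was 215, at rps-24 (WBGene00004493), followed by 144 at rps-28 (WBGene00004497) and 133 at rps-23 (WBGene00004492). RPS-23 lies at the decoding centre and bears on the accuracy of translation, and RPS-28 lies by the mRNA exit. Next came rps-19 (WBGene00004488) with 119 and rps-1 (WBGene00004470), the worm counterpart of mammalian RPS3A, with 112. The human counterpart of rps-19 is a gene mutated in Diamond-Blackfan anaemia. The lowest 4 were rps-26 (WBGene00004495) with 89.7, rps-16 (WBGene00004485) with 88, rps-12 (WBGene00004481) with 86.3 and rps-7 (WBGene00004476) with 75.1. Against a median of 103 over all listed peaks, the 15 listed peaks of ribosomal protein genes had a higher median, 119. Their median rank was 162 of 465, so as a group they stood above the middle of the set but not at its top.

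The threshold of the lists is an irreproducible discovery rate (IDR), which measures how well the rank of a peak agrees between the parts of the data compared, and every listed peak had an IDR of 0.01 or less. Just inside it stood rps-12 with an IDR of 0.00996. Of the unlisted genes, those just outside were rpl-5 at 0.012, rps-17 at 0.0372, rps-11 at 0.0383 and rps-20 at 0.0492. RPL-5 carries 5S rRNA into the large subunit, and the other 3 are small subunit proteins. The signal of rps-20, 110, was close to that of rpl-7A, and rpl-5, rpl-21 and rpl-29, with signals from 77.7 to 84, also stood above listed rps-7 (75.1). The order by signal and the order by IDR thus differed at these 4 genes. Not every candidate within the limit is listed: over the whole larger set 149 met an IDR of 0.01 and were not. Per the authors' read-me texts, a thresholded list was made with 1 more file than its ranked list, of a kind that is not named, and whether it removed these candidates was not tested. None of them lay within 2000 bp of a ribosomal protein gene start, and the same held in the other 3 pairs of lists.

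Each of these peaks was then followed in both replicates, where only ranks within a replicate's own list of 18181 or 27101 candidates can be read. The rpl-3 peak had a signal of 229 and rank 21 in replicate 1, and a signal of 112 and rank 144 in replicate 2. The rpl-35 peak had 155 at rank 40 and 97.7 at rank 172, and the rps-24 peak 115 at rank 68 and 101 at rank 161. For rpl-20 the signals were 108 at rank 76 and 86.7 at rank 182, and for rpl-15 they were 106 at rank 80 and 85.2 at rank 186. These 5 genes led in both replicates and passed the threshold in both. So did rps-28, with 89.7 at rank 114 and 55.2 at rank 299, and rps-19, with 67.6 at rank 238 and 46.9 at rank 404. That made 7 ribosomal protein genes listed in both replicates.

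The genes rps-23, rps-1, rpl-7A, rps-26 and rps-16 passed in replicate 1 alone. In replicate 1 their signals ran from 60.5 (rps-16) to 89.9 (rps-23), and in replicate 2 from 31.5 (rps-16) to 41.1 (rps-23). Their IDR in replicate 2 was 0.0659 for rps-23, 0.0513 for rps-1, 0.931 for rpl-7A, 0.201 for rps-26 and 0.202 for rps-16. Thus all 5 were found as candidates in replicate 2 but did not reach its threshold. The other 3 listed genes of the larger set passed in neither replicate alone. The rpl-12 peak had 48.4 (IDR 0.0725) and 42.1 (IDR 0.0108), the rps-12 peak 39 (IDR 0.433) and 46.5 (IDR 0.484), and the rps-7 peak 49.9 (IDR 0.0232) and 35.9 (IDR 0.248), in replicates 1 and 2. Listing of these 3 therefore rests on the combined data.

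Replicate 2 listed 3 further genes. The rpl-19 peak (chrI:5485400-5485635) had a signal of 43.8 there and an IDR of 0.00787, and its summit lay 224 bp inside the gene. The adjacent genes rpl-41.1 and rpl-41.2, which encode a very short large subunit protein, shared 1 peak (chrI:4789858-4790093) with a signal of 42.8 and an IDR of 0.00742. That summit lay 316 bp upstream of rpl-41.2 and 786 bp downstream of the rpl-41.1 start. In replicate 1 the strongest candidates of these genes had an IDR of 0.954 (rpl-19), 0.342 (rpl-41.1) and 0.854 (rpl-41.2). Those candidates lay at other positions than the summits listed in replicate 2, so their IDR is not that of the same peaks. The peaks listed here in replicate 2 were not followed by position into replicate 1. The 12 genes of replicate 1 and the 10 genes of replicate 2, the latter from 9 summits, thus had 7 in common, with 5 in replicate 1 only and 3 in replicate 2 only.

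**Figure D2:**
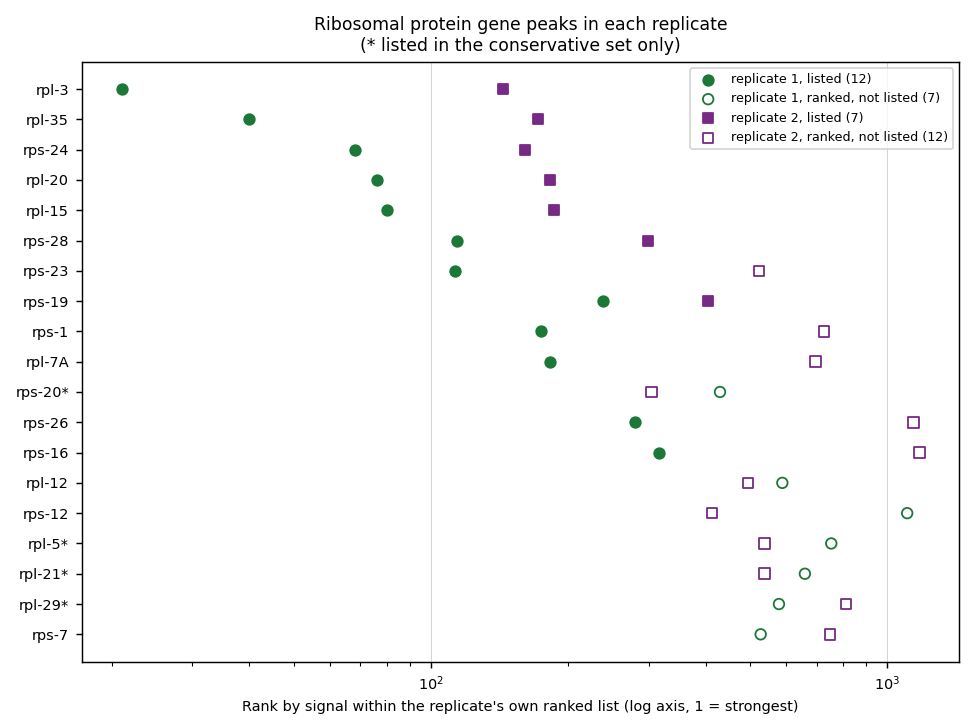
Rank by signal of 19 peaks of ribosomal protein genes in each replicate's own ranked list (log axis, 1 is the strongest); circles are replicate 1 and squares replicate 2, filled where listed. An asterisk marks the 4 genes listed only in the conservative set. The 7 filled squares belong to rpl-3, rpl-35, rps-24, rpl-20, rpl-15, rps-28 and rps-19, and ranks in the 2 lists, which differ in length, are not to be compared with each other.

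The conservative set, the authors' other list from both replicates, held 19 of the 81 genes (23.5%, against 2.72% of all protein-coding genes), 9 of the large and 10 of the small subunit. All 15 genes of the larger set were among them. The 4 additions were rps-20 with a signal of 110, rpl-5 with 84, rpl-21 with 78.7 and rpl-29 with 77.7, all structural proteins. They were the 4 strongest of the unlisted genes in the larger set, where their signals were the same and their IDR was 0.0492, 0.012, 0.14 and 0.0654. The remaining unlisted genes with a candidate reached down to 33.3, at rpl-13. Highest among them were rpl-39 and rps-30, which lie head to head and share 1 candidate of signal 72.1 (IDR 0.1) between them. Over all 4 pairs of lists, 22 of the 81 genes were listed at least once (27.2%, against 3.48% of all protein-coding genes). The other 59 had candidates only and 0 had no candidate. A candidate in at least 1 of these long lists was common, found at 82.4% of all protein-coding genes.

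Signal below the threshold was described by the strongest candidate of each gene. Over the 66 genes with a candidate, the strongest had a median signal of 57.7 (quartiles 47.2 to 78.5), against 46.1 (39.5 to 56.5) over the 6593 protein-coding genes with one. Over the 51 genes with candidates only the median was 54.6 (45.9 to 61.4). These are medians over genes chosen with the lists in view, and they describe the lists without a test. The medians of the large and the small subunit, 57.1 and 62.1, lay close together beside that spread.

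The listed summits lay before the genes rather than in them. All 15 listed summits lay upstream of the start, and 12 of them within 150 to 500 bp of it (80%, against 25.5% of the 565 pairs of a listed summit and a protein-coding gene). The distances were 268 bp for rpl-3, 440 bp for rpl-35, 333 bp for rps-24, 286 bp for rpl-20, 338 bp for rpl-15, 456 bp for rps-28 and 276 bp for rps-23. They were 277 bp for rps-19, 249 bp for rps-1, 241 bp for rps-7, 424 bp for rps-26 and 152 bp for rps-12. Only 3 listed genes lay outside the band: rpl-7A at 88 bp, rpl-12 at 51 bp and rps-16 at 1733 bp. The median was -277 bp, and it was -298.5 bp in replicate 1 and -302 bp in replicate 2. With a window from 500 bp upstream to 100 bp inside the start, 14 of the 81 genes were listed (17.3%), against 0.966% of all protein-coding genes.

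The same band held many candidates that did not pass. Of the strongest summits of the 66 genes with a candidate, 47% lay 150 to 500 bp upstream, against 13.9% over all protein-coding genes, and for the 51 genes with candidates only it was 37.3%. Of all 126 pairs of a candidate summit and a ribosomal protein gene, 16 (12.7%) fell 200 to 300 bp upstream, the fullest 100 bp bin. The same bin was the fullest over all protein-coding genes too, with 4.36% of pairs. The position was therefore the usual one in these lists, but the ribosomal protein genes were more concentrated in it. The 126 pairs came from 119 summits, because 7 summits served 2 ribosomal protein genes each: rpl-24.1 with rps-10 (3 summits), rpl-36 with rps-14 (2), rpl-39 with rps-30 (1) and rpl-41.1 with rpl-41.2 (1).

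**Figure D3:**
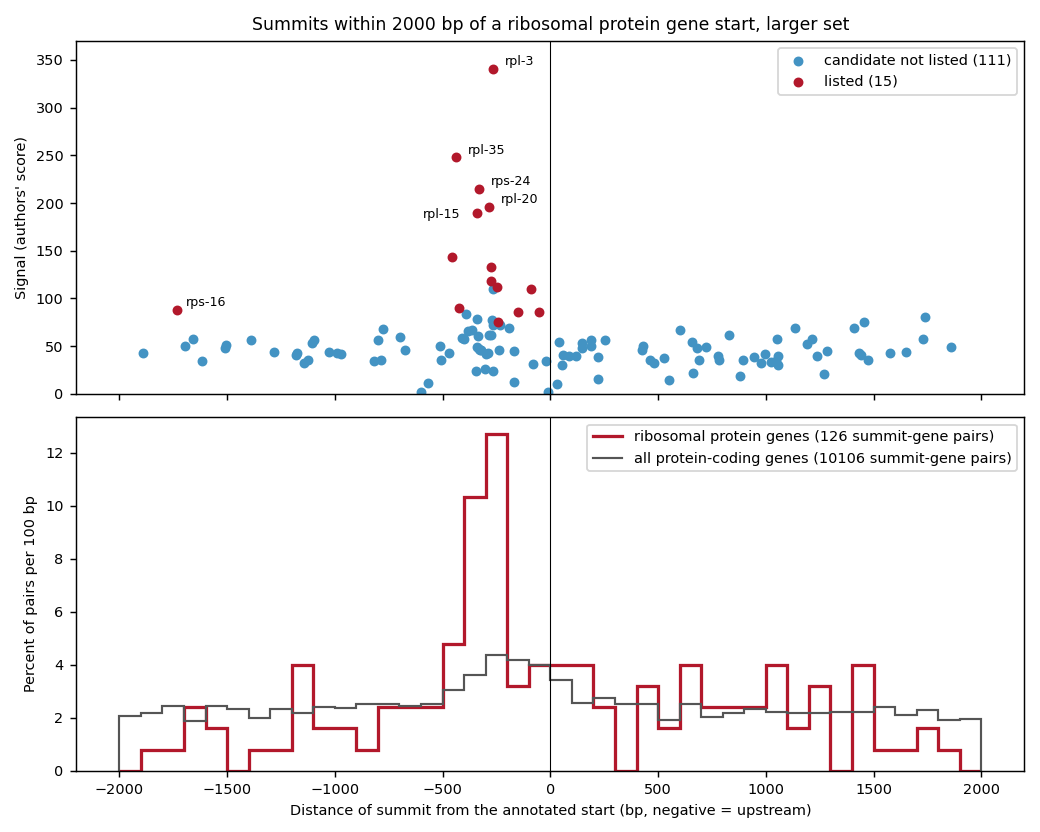
Upper panel, signal of every candidate summit within 2000 bp of a ribosomal protein gene start against its distance from that start in bp (negative is upstream), red where listed (15) and blue where not (111). Lower panel, percent of summit-gene pairs in each 100 bp bin for ribosomal protein genes (red, 126 pairs) and for all protein-coding genes (grey, 10106 pairs). The red line peaks at 12.7% in the bin from 300 to 200 bp upstream, where the grey line stands at 4.36%, and rps-16 is the lone listed summit far from its start.

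These distances depend on what the annotated start is. AG, the last letters of a splice acceptor, stood directly before the start at 69 of the 81 ribosomal protein genes (85.2%), against 27.6% of all protein-coding genes. The longer acceptor-like word TTTCAG stood there at 40 (49.4%, against 12.2%). Whether these starts are trans-splice sites, with transcription starting nearer to the summits, was not tested. The median distance of the listed summits was -281.5 bp at the 12 genes with AG and -88 bp at the 3 without it, rps-24, rpl-12 and rpl-7A. Of those 3, rpl-12 and rpl-7A had the listed summits nearest to a start, and rps-24 was at 333 bp. Over all protein-coding genes the listed medians were closer together, -322.5 bp with AG and -276 bp without.

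The other 9 listed peaks, each 260 bp wide on build ce11, were at chrIV:12391199-12391458 (rps-23), chrI:9625943-9626202 (rps-19), chrIII:4475539-4475798 (rps-1), chrIV:4390548-4390807 (rpl-7A), chrI:14759376-14759635 (rps-26), chrV:15002144-15002403 (rps-16), chrIV:13240572-13240831 (rpl-12), chrIII:5679016-5679275 (rps-12) and chrI:10330508-10330767 (rps-7). The peaks of rpl-7A and rpl-12 reached into an exon of their own gene. The rps-1 peak overlapped the non-coding RNA genes F56F3.10 and F56F3.11, the rps-26 peak exons of tmem-107 and of the snoRNA gene F39B2.14, and the rps-16 peak an exon of fib-1. The peaks of rps-23, rps-19, rps-12 and rps-7 touched no annotated exon.

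Neighbouring genes share some of these summits. Except at rpl-3 and rpl-35, the summit had a start of another protein-coding gene within 2000 bp (13 of 15), and at 6 of these the other start was the nearer one. It was Y17G9B.5 at 176 bp for rpl-20, dpm-3 at 258 bp for rps-23, hsr-9 at 168 bp for rps-19, tmem-107 at 33 bp for rps-26 and ska-3 at 141 bp for rps-12, all running the other way. These 5 summits lie between divergent genes, as do those of rpl-15, rps-1, rpl-7A and rpl-12, where the ribosomal protein start is the nearer one. The rps-26 summit is far nearer to tmem-107 than to rps-26 (33 against 424 bp), while those of rps-23 and rps-12 are almost as near to one start as to the other. The sixth, 1733 bp from rps-16, lay 51 bp upstream of fib-1, the gene of the rRNA methyltransferase fibrillarin, which lies upstream of rps-16 on the same strand. Of the 4 genes added by the conservative set, rps-20 had ekl-4 at 132 bp and rpl-21 had C14B9.10 at 287 bp as the nearer start. Counting each summit for the nearest start alone, 9 of the 81 ribosomal protein genes were listed (11.1%), against 1.59% of all protein-coding genes.

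A divergent neighbour, meaning that the nearest upstream start is on the other strand within 1000 bp, was present at 48 of the 81 genes (59.3%, against 17.5% of all protein-coding genes). The median gap was 532.5 bp. Of the 48, 9 were listed, 31 had candidates only and 8 had none. Over all protein-coding genes with such a neighbour 4.98% were listed, above the 2.66% of all genes. Of the 25 ribosomal protein genes with the end of a same-strand gene within 1000 bp upstream, 3 were listed (rpl-3, rps-7 and rps-16), 16 had candidates only and 6 had none. Over all protein-coding genes so placed 2.46% were listed. The last 8 met neither condition, as judged over protein-coding genes only. Of these, 3 were listed (rpl-35, rps-24 and rps-28), 4 had candidates only and 1 had none, while all protein-coding genes in the same position were listed at 2.02%. Listed genes were thus found in each of the 3 arrangements.

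Intronic snoRNA genes, 19 in all and none overlapping an exon of its host, lay in 13 of the 81 genes. The hosts were rpl-2, rpl-4, rpl-6, rpl-7, rpl-7A, rpl-15, rpl-24.1, rpl-26, rps-4, rps-12, rps-13, rps-23 and rps-29, with 3 snoRNA genes in rpl-6. Among these hosts rpl-7A, rpl-15, rps-12 and rps-23 were listed (4 of 13, 30.8%), 7 had candidates only, and rpl-26 and rps-4 had none. Among the 68 genes without a snoRNA gene 11 were listed (16.2%), 44 had candidates only and 13 had none. The hosts are few, and the difference between these shares was not tested. A snoRNA gene lay within 500 bp of 3 listed summits: Y24D9A.9 in the intron of rpl-7A, F54E7.10 in the intron of rps-12, and F39B2.14, a gene outside rps-26 that its peak touches. No tRNA, snRNA or rRNA gene lay within 500 bp of any of the 15.

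**Figure D4:**
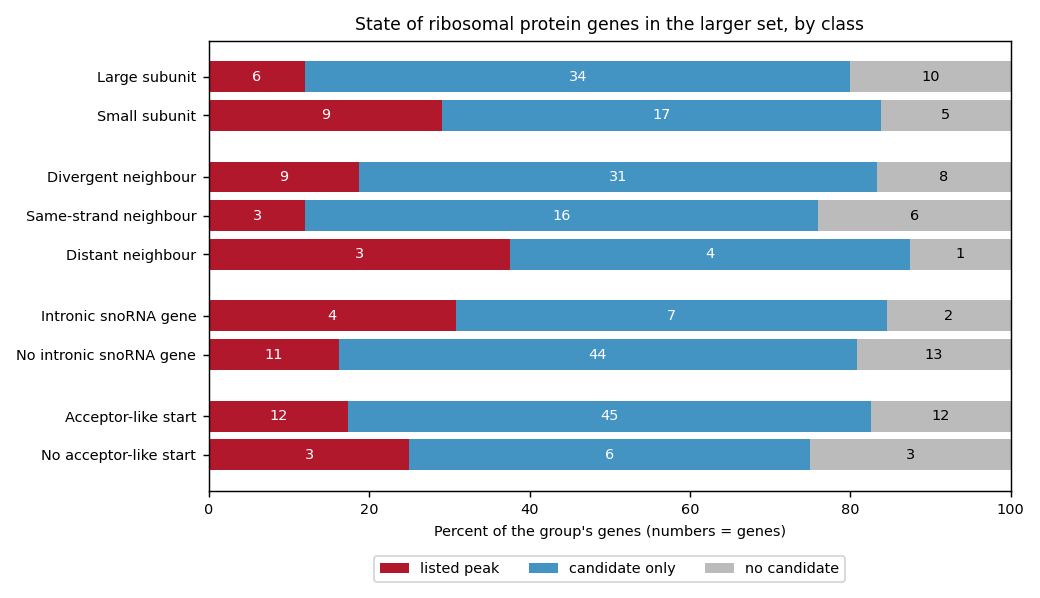
Percent of ribosomal protein genes that were listed (red), candidate only (blue) or without a candidate (grey) in the larger set, by subunit, by upstream neighbour, by intronic snoRNA gene and by whether AG stands directly before the start (acceptor-like). Numbers in the bars are genes. The listed share runs from 3 of 25 genes with a same-strand neighbour to 3 of 8 in the distant class. Distant means neither a divergent nor a same-strand protein-coding neighbour by the 1000 bp rule, and every class has listed genes.

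Sequence around the summits was mostly unique. No 24-base word within 130 bp of the summit occurred 5 or more times in the genome at 12 of the 15 listed ribosomal protein summits (80%), against 43.1% of the other 450 listed summits. Of the other 3, rps-23 and rpl-12 had 0.42% of such words and rps-24 had 42.9%. Near rpl-7A, 27.3% occurred at least 2 times but none 5 times. Repeated sequence thus lay under 1 of the 7 peaks shared by both replicates. The GC content had a median of 39.5% at the 15 summits and 41% at the other 450. Those 450 were not limited to promoters, and the promoter summits among them were not counted apart.

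The words printed in capitals above were picked by a scan of short words near the listed summits of these genes, after the data were seen. Their counts are thus a description without a test. That choice favours high shares at the listed summits themselves, so the contrast with other summits cannot be read as a result. At 7 of the 15 listed summits (46.7%) TACGGT (other strand ACCGTA) was found no further than 75 bp away, against 11.6% of the other 450 listed summits and 8.06% of the 1823 other candidates that were not listed and lie in promoters. Those 7 were rpl-3, rpl-20, rpl-15, rps-23, rps-1, rps-16 and rps-7. GGCCTA (other strand TAGGCC) was found as near at 6 of the 15 listed summits (40%), against 3.78% and 4.66%. Those were rpl-3, rpl-15, rps-23, rpl-7A, rps-26 and rps-7. At the 33 promoter candidates of ribosomal protein genes that were not listed, TACGGT was found at 12 (36.4%) and GGCCTA at 2 (6.06%). There GGCCTA was near the share of other promoter candidates, and TACGGT was above it. The centre of TACGGT stood 10 to 31 bp from the summit at the 7 genes, and that of GGCCTA 18 to 66 bp from it at the 6.

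Both words were also frequent in ribosomal protein genes that no list named. In the 500 bp before the start, TACGGT was found at 36 of the 81 genes (44.4%), against 13.9% of all protein-coding genes, and at 26 of the 59 genes listed nowhere (44.1%). GGCCTA was found at 33 of the 81 (40.7%), against 7.66%, and at 23 of the 59 (39%). In the larger set, the 15 listed genes had TACGGT at 6 (40%) and GGCCTA at 9 (60%), and the 66 others had TACGGT at 30 (45.5%) and GGCCTA at 24 (36.4%). TACGGT was thus no more frequent at listed than at other ribosomal protein genes, and the difference for GGCCTA was not tested. Both words occurred together at 21 of the 81 genes (25.9%), against 1.18% of all protein-coding genes. In 16 of those 21 GGCCTA lay nearer to the start (76.2%, against 53.2% over all genes with both), with a median gap of 68.5 bp.

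The other words searched, in the 500 bp before the start and on both strands, gave shares on either side of those of all genes. TTTCAG was at 86.4% of ribosomal protein genes and 65.4% of all, TATAAA at 54.3% and 54.1%, and GAGACGC at 11.1% and 6.37%. These 500 bp include the bases directly before the start, where TTTCAG stood at 49.4% and 12.2%. The run TTTTTTTT was at 34.6% and 49.4%, GATAAG at 8.64% and 22.7%, and CACGTG at 1.23% and 8.6%. The words GCGCGAAA and GGTTCGA were each at 1.23%, against 2.01% and 2.63%. TACGGTA, which contains TACGGT, was at 21% and 7.24%. The share of TATAAA was thus similar to that over all genes. The shares of TTTCAG and TACGGTA were higher, and those of TTTTTTTT, GATAAG and CACGTG lower. GAGACGC was found at only 9 of the 81 genes. GCGCGAAA and GGTTCGA, at 1 gene each, were near the shares over all genes. None of these differences was tested.

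The 81 genes lie on all 6 chromosomes, and the listed genes were spread over 4 of them. Chromosome IV had 7 listed of 18, chromosome III 4 of 18, chromosome I 3 of 25 and chromosome V 1 of 8, while the 10 genes of chromosome II and the 2 of chromosome X had 0. The conservative set added rpl-5 on chromosome II. Over all protein-coding genes the listed share ran from 1.57% on chromosome X to 3.79% on chromosome I, so chromosome I was highest over all genes while chromosome IV held the most listed ribosomal protein genes, 7 of 15. The 15 genes with no candidate in the larger set were rla-1, rpl-10, rpl-11.2, rpl-14, rpl-25.1, rpl-25.2, rpl-26, rpl-28, rpl-31, rpl-42, rps-2, rps-3, rps-4, rps-18 and rps-27. Each of them had a candidate in at least 1 of the other ranked lists.

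Other genes of the translation machinery were counted by the same rule, with no test of the difference from the 81 genes. The background is again 2.66% of all protein-coding genes listed and 33% with any candidate, and shares over lists of 3 to 18 genes rest on few genes. None of the 3 cytosolic ribosomal protein genes under other names (ubl-1, ubq-2 and rack-1) was listed, and all 3 had candidates. Of the 70 genes of mitochondrial ribosomal proteins, which build the separate ribosome of the mitochondrion, 3 were listed (mrpl-40, mrpl-48 and mrps-28), 34 had candidates only and 33 had none. Their summits lay 1814 bp inside, 1589 bp upstream and 1037 bp upstream, so none stood in the band of the cytosolic genes, and 3 of 70 is near the background. Of the 6 elongation factor genes 2 were listed: eef-2, the translocation factor, with a summit 3 bp upstream of its start and a signal of 86.1, and eef-1A.1, which brings aminoacyl-tRNA to the ribosome, with one 1684 bp downstream of its start. Of the 31 initiation factor genes eif-2Bgamma alone was listed, 969 bp upstream, which is also near the background, and 22 had candidates only. Among 18 genes of ribosome biogenesis, which process and assemble rRNA, 3 were listed: pro-1 at 166 bp upstream, fib-1 at 51 bp upstream and nol-58 at 371 bp upstream. None of the 6 genes of RNA polymerase I and III was listed, and 3 had candidates.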

How the data were processed

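The deposited files were 8 peak lists on build ce11, a ranked and a thresholded list for each replicate and for the larger and the conservative set, per the authors' read-me texts. The signal is a score of the authors' peak caller, and a second deposited score is 125 times the negative log2 of the IDR, capped at 1000. The authors' ranked lists also hold the −log10 of a global IDR with a ceiling of 5, and the IDR values printed were computed from it. The deposited summit is a distance in bp, counted along the peak. The sources used here name no aligner, peak caller or IDR tool. Neither reads nor control libraries were used, and since peak lists carry no read depth, depth is unknown and no interval for counting error is given. P-value columns were not used.

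Gene starts were every annotated transcript start of Ensembl release 115, and sequence came from the RefSeq copy of WBcel235. Each thresholded peak was matched to its ranked list by its position, summit, signal and the second deposited score. The summit matching was tested on simulated data, where 200 of 200 planted summits were recovered. The 81 genes and all lists were chosen with earlier results of these data known. The genes named by rule are those listed in any list, the 5 strongest and the 3 lowest by IDR among the unlisted of the larger set, the snoRNA hosts, genes with no candidate in any ranked list (there were 0), and the nearer neighbours of listed summits. The 15 genes without a candidate in the larger set, the genes that share a summit (rps-10, rpl-36, rps-14 and, by a tie in signal, rpl-39 with rps-30) and the lowest unlisted signal (rpl-13) go beyond that rule and were chosen after their values were seen. So were 3 of the words searched, picked from a scan of words near the listed summits. Genes that share a summit are not independent. The analysis used Python 3.11.15, pandas 2.3.3, numpy 2.4.6 and matplotlib 3.10.9.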

Additional observations from a re-analysis of the deposited data

How the results depend on the processing

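The count of ribosomal protein genes with a listed summit, 15, fell to 9 when a summit counted only for the nearest start, and that of small subunit genes fell from 9 to 4. The number of genes with no candidate, 15, was 29 with a window of 500 bp, 37 with the nearest start only and 8 in the conservative set. With 1 replicate left out, each replicate's own lists gave 10 to 12 listed genes, 5 to 7 of the large and 3 to 7 of the small subunit, 2 to 4 genes with no candidate, and a median distance of -302 to -298.5 bp against -277 bp. The median was -281.5 bp with AG before the start and -88 bp without it, over 12 and 3 genes, a split chosen after seeing the data. The number of genes with a divergent neighbour fell from 48 to 20 with a limit of 500 bp. The causes of these changes were not tested. The ranked list of the larger set held 9477 candidates, against 12529 in the conservative set and 18181 and 27101 in replicates 1 and 2. Each list longer than that of the larger set had fewer genes lacking a candidate. Among them the order did not follow length, with 2 such genes in replicate 1 and 4 in replicate 2. The thresholded lists of replicates 1 and 2 were shorter, with 287 and 248 peaks against 465. The other 56 values, among them stricter and looser IDR limits, the 5′-most start only and a window of 1000 bp, stayed within the spread or within 1.5 times. No paired analysis was possible because the study has 1 group. With 2 replicates and no reads, precision is limited to the spread between the 2 lists.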

Other observations

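Among the ribosomal protein genes that no list named, the words TACGGT and GGCCTA stood mostly in 1 order. Of these 59 genes 15 had both words in the 500 bp before the start (25.4%), and in 12 of the 15 GGCCTA lay nearer to the start (80%), with a median gap of 68.5 bp (quartiles 52.75 to 85.5 bp). Over all protein-coding genes with both words, 53.2% had GGCCTA nearer to the start, with a median gap of 94 bp (quartiles 57 to 226 bp). Over all 81 ribosomal protein genes, listed ones included, the matches also leaned to 1 strand. For GGCCTA 25 of the 38 matches were on the coding strand (65.8%, against 52.2% over all genes). For TACGGT 11 of the 37 were (29.7%, against 47.5%). Divergent ribosomal protein genes share promoter sequence, so these matches are not independent.

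The strongest ribosomal protein peak, that of rpl-3, ranked 79 by signal among all candidates of the larger set but 11 among the listed peaks. Of the 78 candidates with a higher signal 68 were not listed, and all 68 of these had an IDR of 0.01 or less.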
